A study of Mus musculus with 6 samples.

Results

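Metallothionein mRNA was followed in mouse heart together with genes that sense and move zinc. The 5 genes were Mt1, Mt2, Mtf1, Slc30a1 and Slc39a14, found by symbol among 16229 listed genes, and all 5 were measured in every library. They were selected on earlier results of the same comparisons, so their values are given here as a description with no p-value, and limma's calls among them are only counted. The hearts came from male C57BL/6 mice, a common inbred strain, aged 8 to 10 weeks. 2 samples were from mice given rivaroxaban, an oral inhibitor of coagulation factor Xa, at 3 mg/kg for 7 days. 2 were from mice given dabigatran, an inhibitor of thrombin (factor IIa), at 10 mg/kg for 7 days, and 2 were from untreated mice. Each drug was thus given at 1 dose, and the doses differed. The labels describe the tissue of every sample as infarct and the tissue around it. They do not say whether the untreated mice were operated on, whether a group's samples are from different mice, or when each was collected.

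Metallothioneins are small cysteine-rich proteins that bind zinc, copper and cadmium. In mice Mt1 and Mt2 are neighbouring genes made in most tissues, including heart. Their transcription is raised by MTF1, a zinc-sensing transcription factor that binds metal response elements, and also by glucocorticoids and by the IL-6 and STAT3 acute phase pathway. Slc30a1 encodes ZnT1, which exports zinc across the cell membrane and is a known MTF1 target in mice. Slc39a14 encodes ZIP14, an importer of zinc, manganese and iron.

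On GRCm38 (mm10), Mt2 (ENSMUSG00000031762) lies on chromosome 8 from 94172664 to 94173568, and Mt1 (ENSMUSG00000031765) follows it from 94179082 to 94180327. Both are on the plus strand, with 5513 bases between them. Mtf1 (ENSMUSG00000028890) lies on chromosome 4 from 124802104 to 124849800, and Slc30a1 (ENSMUSG00000037434) on chromosome 1 from 191906767 to 191913247, also on the plus strand. Slc39a14 (ENSMUSG00000022094) lies on the minus strand of chromosome 14 from 70303469 to 70351425. All 5 are annotated as protein-coding. RefSeq starts on GRCm38.p6 differ slightly from GENCODE starts, and Slc39a14 had no RefSeq promoter entry, so it was not searched. For the genes with a metal response element core in this stretch, the following lines show the 250 bases before the RefSeq start. They are on the plus strand, 5′ to 3′, and the cores are in capitals.
Mt1, chr8:94178839-94179088: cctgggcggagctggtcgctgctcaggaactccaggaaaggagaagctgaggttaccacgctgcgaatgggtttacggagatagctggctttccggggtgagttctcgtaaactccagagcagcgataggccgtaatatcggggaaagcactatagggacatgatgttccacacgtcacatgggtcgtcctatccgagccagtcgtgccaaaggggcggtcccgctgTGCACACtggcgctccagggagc
Mt2, chr8:94172368-94172617: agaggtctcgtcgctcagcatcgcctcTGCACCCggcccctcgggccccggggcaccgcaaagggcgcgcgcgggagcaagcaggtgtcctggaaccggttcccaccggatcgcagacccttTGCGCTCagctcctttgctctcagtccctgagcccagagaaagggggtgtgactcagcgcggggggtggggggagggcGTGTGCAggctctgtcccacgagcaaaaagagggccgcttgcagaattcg
Slc30a1, chr1:191906531-191906780: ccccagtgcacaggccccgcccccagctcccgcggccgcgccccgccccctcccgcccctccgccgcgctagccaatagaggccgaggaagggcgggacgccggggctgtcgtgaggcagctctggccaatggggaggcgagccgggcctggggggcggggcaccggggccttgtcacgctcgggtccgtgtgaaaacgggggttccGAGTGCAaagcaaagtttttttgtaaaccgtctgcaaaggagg

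The core was searched as TGCACNC or TGCGCNC on both strands of the 300 bases from 250 before to 50 after the start. Mt2 held 4 matches, Mt1 held 3, Slc30a1 held 2 and Mtf1 held 0. Of 32851 mouse promoter windows of this length, 25.7% held at least 1 match, 7.11% at least 2, 1.97% at least 3 and 0.517% at least 4. In Mt1 the matches began at base -23 before the start and at bases 3 and 21 after it. GENCODE also lists Mt1 transcripts that begin 122 and 152 bases downstream of the RefSeq start. The same 5 matches stood in the 250 bases before each of these later starts, and they include the 3 above. In Mt2 the matches began at -223, -128, -50 and 5. A later Mt2 transcript in GENCODE begins 242 bases downstream of the RefSeq start. The 250 bases before it held 4 matches, among them the one at base 5. The shares above are for the 300-base windows, not for these 250-base stretches. The letters of an antioxidant response element, TGACNNNGC, stood once in Mt2 and once in Slc30a1, and in 12.4% of windows. Those of a glucocorticoid response element, searched as ACANNNTGT, stood once in Mt1, 92 bases before the start, and in 6.85% of windows. The E-box CACGTG, found in 7.15% of windows, and the heat shock element GAANNTTC, found in 7.86%, had no match in the windows of these 4 genes. Motifs other than the metal response element core were counted only around the RefSeq start, not before the later starts. No match overlapped a match of another motif, and a match is a description of the sequence, not of binding.

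Summed over listed genes, depth ran from 27176892 to 43798222 reads a library. Levels are log2 CPM, the authors' scaled reads on a log2 scale, and 12981 genes with a mean of at least 0 on this scale were tested. Replicates of a group measure only the spread between these samples, which may be technical. With 2 libraries against 2, an exact permutation test of a single gene cannot give a two-sided p below 0.333, so calls rest on limma, which shares the estimate of spread over genes. Against untreated hearts, limma called 2.46% of tested genes for rivaroxaban (1.47% higher) and 1.88% for dabigatran (1.38% higher). Between the drugs it called 0.0770%. Of the rivaroxaban calls 59.9% were higher, and 86.7% when libraries were centred on cardiomyocyte markers. Of the dabigatran calls these shares were 73.4% and 84.0%. Between the drugs 0 of 10 calls were higher with rivaroxaban, and 2 of 12 after that centring. Of the 5 genes, limma called 2 higher with dabigatran (Mt1 and Mt2), 0 with rivaroxaban and 0 between the drugs. The Mt1 call was lost without dabigatran replicate 10, untreated replicate 8 or untreated replicate 9, the Mt2 call without untreated replicate 8, and both in a fit without limma's mean-variance trend. The count of 0 with rivaroxaban also turned on the settings. Mt2 was called higher with rivaroxaban without the filter and with only the 2 groups compared. Centring on cardiomyocyte markers gave a call of both Mt1 and Mt2 with rivaroxaban. Nothing is read from these counts, because these contrasts were known when the genes were chosen.

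Mt2 showed the widest range of the 5 genes. It had 4.59 and 5.27 log2 CPM in rivaroxaban replicates 14 and 15, 5.15 and 5.40 in dabigatran replicates 10 and 12, and 4.10 and 4.28 in untreated replicates 8 and 9. All 4 treated libraries lay above both untreated ones, and rivaroxaban replicate 14 lay nearest to them. The read counts behind these levels were 875 and 1122 with rivaroxaban, 951 and 1834 with dabigatran, and 488 and 625 without a drug. The mean was 4.93 ± 0.48 with rivaroxaban, 5.27 ± 0.17 with dabigatran and 4.19 ± 0.12 in untreated hearts (SD, n = 2 each). The log2 difference from untreated was 0.74 (SE 0.17) for rivaroxaban, or 1.67-fold. For dabigatran it was 1.08 (SE 0.17), or 2.12-fold. The rivaroxaban difference was 0.40 without replicate 15 and 1.08 without replicate 14, so its size turned on which of these libraries was used. Gm45774, annotated antisense over Mt2, was not analysed here.

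Mt1 was the more abundant metallothionein. It had 7.20 and 7.54 log2 CPM in the rivaroxaban libraries, 7.61 and 7.50 in the dabigatran libraries, and 6.97 and 7.04 in the untreated libraries. The treated and untreated levels did not overlap, and rivaroxaban replicate 14 was again the treated library closest to the untreated ones. The mean was 7.37 ± 0.24 with rivaroxaban, 7.55 ± 0.07 with dabigatran and 7.00 ± 0.05 in untreated hearts (SD, n = 2 each). The log2 difference from untreated was 0.36 (SE 0.09), or 1.28-fold, for rivaroxaban. It was 0.55 (SE 0.09), or 1.46-fold, for dabigatran. Both differences were smaller than those of Mt2 on the log2 scale. Without rivaroxaban replicate 15 the rivaroxaban difference was 0.19, and without replicate 14 it was 0.53.

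**Figure D1:**
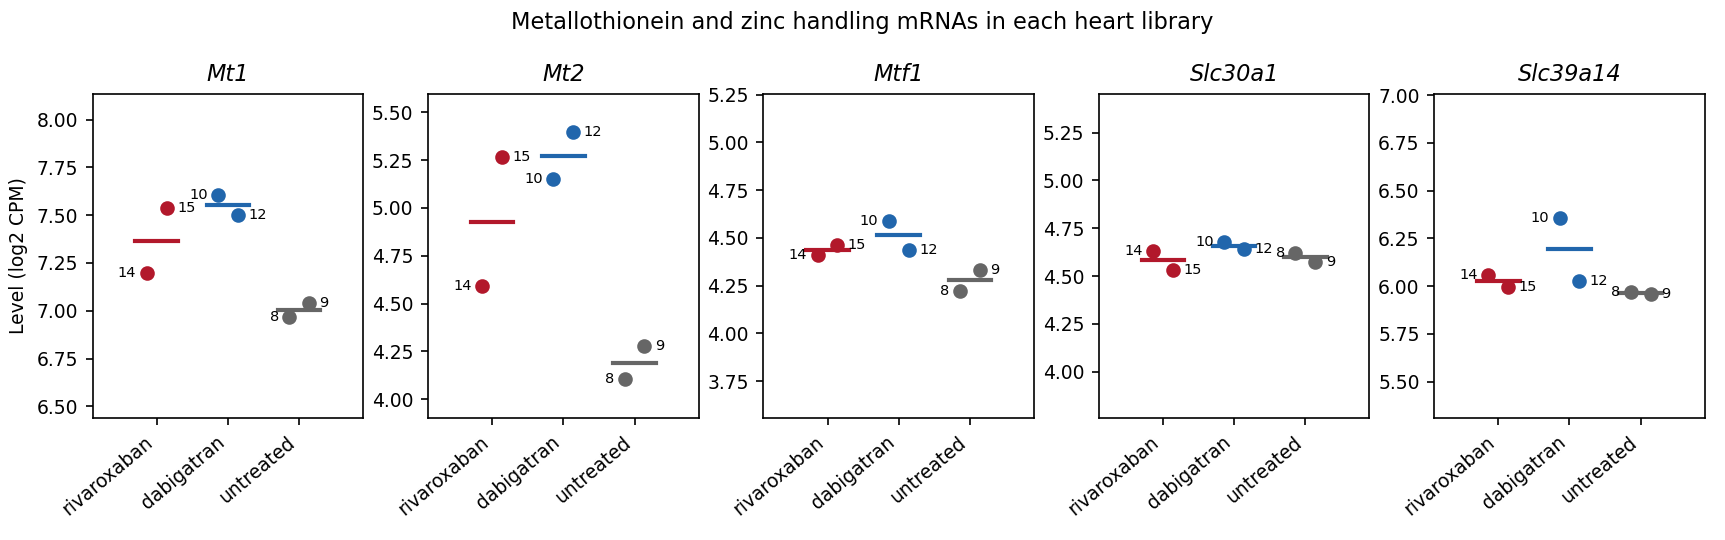
Levels in log2 CPM of the 5 genes in each library, by group; points are libraries with their replicate number, bars are group means, and each panel spans the same number of log2 units around its own centre. All 4 treated libraries lie above both untreated ones for Mt1 and Mt2, and by small gaps for Mtf1 and Slc39a14. The Slc30a1 levels of the rivaroxaban and untreated groups overlap.

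Because Mt2 differed more than Mt1, its share of the summed Mt1 and Mt2 reads was higher in treated hearts. Mt2 took 14.1% (95% Wilson interval 13.2 to 15.0) and 17.1% (16.2 to 18.1) of these reads in rivaroxaban replicates 14 and 15. In dabigatran replicates 10 and 12 the shares were 15.4% (14.5 to 16.3) and 18.8% (18.1 to 19.6). In untreated replicates 8 and 9 they were 12.0% (11.1 to 13.1) and 12.8% (11.9 to 13.7). The intervals cover counting error only, since reads were not tagged by molecule. All 4 treated shares were above both untreated shares, although the interval of rivaroxaban replicate 14 overlapped that of untreated replicate 9. The means were 15.6 ± 2.16% with rivaroxaban, 17.1 ± 2.41% with dabigatran and 12.4 ± 0.53% in untreated hearts (SD, n = 2 each). The dabigatran replicates differed by more than their counting intervals while their summed levels were close, at 230 and 223 CPM. Summed levels were 171 and 224 CPM with rivaroxaban and 142 and 151 CPM in untreated hearts. The spliced 3-exon transcripts of Mt1 and Mt2 share at most 20 bases in a row.

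**Figure D2:**
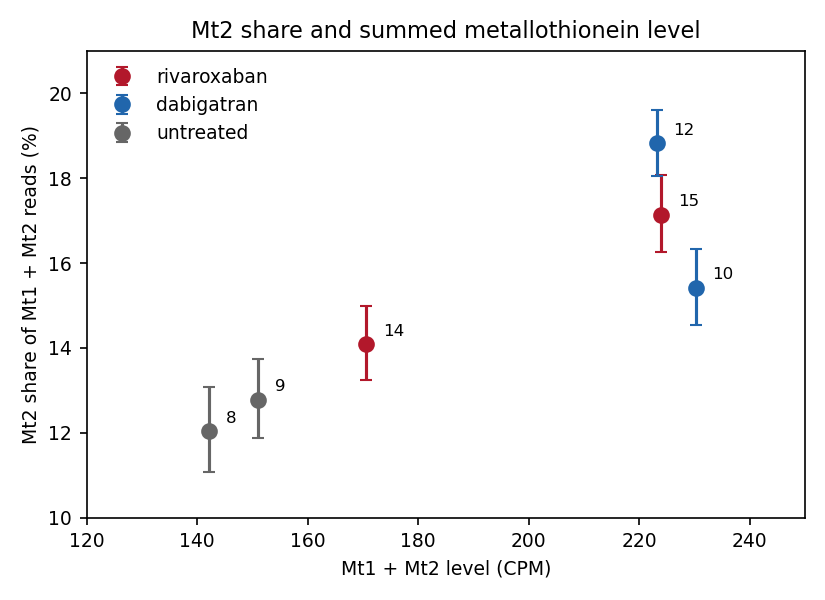
Share of Mt2 in the summed Mt1 and Mt2 reads (%, vertical, with 95% Wilson intervals) against the summed level (CPM, horizontal); each point is a library with its replicate number. Untreated libraries lie at the lower left, at 12.0% and 12.8%, and rivaroxaban replicate 15 lies beside the dabigatran libraries.

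Mtf1, the gene for the zinc sensor itself, had 4.41 and 4.46 log2 CPM in the rivaroxaban libraries, 4.59 and 4.44 in the dabigatran libraries, and 4.22 and 4.33 in the untreated libraries. The treated levels stood above the untreated ones, with small gaps. The log2 difference from untreated was 0.16 (SE 0.09) for rivaroxaban, or 1.12-fold, and 0.24 (SE 0.09) for dabigatran, or 1.18-fold. 1110065P20Rik, on the opposite strand, overlaps the 3′ end of Mtf1. It was listed at 2.79 and 2.51 log2 CPM with rivaroxaban, 2.80 and 2.56 with dabigatran and 2.89 and 2.75 in untreated hearts. The library kit kept the strand, but the sources used here do not say whether the counting used it.

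The zinc exporter Slc30a1 had 4.63 and 4.53 log2 CPM in the rivaroxaban libraries, 4.68 and 4.64 in the dabigatran libraries, and 4.62 and 4.57 in the untreated libraries. The rivaroxaban and untreated levels overlapped, and the dabigatran levels stood just above both. The log2 difference from untreated was -0.02 (SE 0.08) for rivaroxaban and 0.06 (SE 0.08) for dabigatran, each smaller than its SE. The sign of the rivaroxaban value changed, to 0.07, when libraries were centred on cardiomyocyte markers. It also changed without rivaroxaban replicate 15 and without untreated replicate 8. Slc30a1 shares the metal response element core with Mt1 and Mt2 in the lines above. Its differences were the closest to 0 of the 5 genes with each drug. The part of the core in any of these values was not tested. Its antisense neighbour 1700034H15Rik was listed at only 6 to 23 reads a library.

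The importer Slc39a14 had 6.06 and 5.99 log2 CPM in the rivaroxaban libraries, 6.36 and 6.03 in the dabigatran libraries, and 5.97 and 5.96 in the untreated libraries. Dabigatran replicate 10 stood apart, and the other treated libraries lay close above the untreated ones. The log2 difference from untreated was 0.06 (SE 0.09) for rivaroxaban and 0.23 (SE 0.09) for dabigatran. The dabigatran difference was 0.06 without replicate 10 and 0.39 without replicate 12. A single library therefore set most of it.

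Taking rivaroxaban against dabigatran, the log2 differences were -0.35 (SE 0.17) for Mt2, -0.19 (SE 0.09) for Mt1, -0.17 (SE 0.09) for Slc39a14, -0.08 (SE 0.08) for Slc30a1 and -0.07 (SE 0.09) for Mtf1. All 5 were below 0, and the levels of 4 of the 5 genes overlapped between the drugs. Without rivaroxaban replicate 14 the Mt2 and Mt1 differences were -0.01 and -0.02, so rivaroxaban replicate 15 had nearly the dabigatran mean. Against untreated, the groups did not overlap for 4 of 5 genes with rivaroxaban and 5 of 5 with dabigatran. Over all tested genes this held for 50.6% and 43.6%, and between the drugs for 39.7%. The 2 comparisons share their untreated libraries.

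Per kilobase of the longest annotated transcript, Mt1 and Mt2 were the most abundant of 25 listed metallothioneins, zinc transporters and Mtf1 in the mean over all 6 libraries. Mt1 averaged 148 CPM per kilobase (115 to 180) and Mt2 57.5 (33.5 to 82.2). The longest Mt1 transcript is unspliced, and with the 549 bases of the 3-exon transcript Mt1 averaged 293, a choice made after seeing the data. Slc39a1, which encodes the plasma membrane zinc importer ZIP1, averaged 46.1 (43.6 to 51.7), within the range of Mt2. The order of these 2 genes differed by group. Mt2 averaged 61.1 with rivaroxaban, 75.9 with dabigatran and 35.7 in untreated hearts, and Slc39a1 averaged 45.6 with rivaroxaban, 43.7 with dabigatran and 49.0 in untreated hearts. Slc39a14 was number 5 in the order, at 13.1 (12.2 to 16.0), clear of its neighbours. Slc30a1 was number 9, at 4.66 (4.41 to 4.86), overlapping Slc39a9 below it. Mtf1 was number 12, at 2.78 (2.44 to 3.15), and overlapped Slc30a4. Mt3, a metallothionein best known from brain, was below the filter at 22 to 46 reads a library, and Mt4 was not analysed here.

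Calls were also counted among the other zinc transporters. Over all tested genes limma called 2.46% with rivaroxaban and 1.88% with dabigatran. At these shares so small a set would usually hold few calls or none. Of 15 tested SLC30 and SLC39 genes outside the 5, limma called 0 higher and 1 lower with rivaroxaban and 0 with dabigatran. Their median log2 differences were 0.0040 for rivaroxaban and -0.0025 for dabigatran, against 0.0050 and 0.0026 over all tested genes. The gene called was Slc39a8, which encodes ZIP8, a zinc and manganese importer close to ZIP14. Slc39a8 had 1.42 and 1.80 log2 CPM with rivaroxaban, 1.85 and 2.15 with dabigatran and 2.40 and 2.52 in untreated hearts. It was lower with rivaroxaban by log2 -0.85 (SE 0.18, limma adjusted p = 0.0343 over all genes) in 2 of 2 libraries. With dabigatran the difference was -0.46 (SE 0.18, limma adjusted p = 0.259). Rivaroxaban minus dabigatran was -0.39 (SE 0.18, limma adjusted p = 0.596), so the drugs were not shown to differ. The rivaroxaban call was lost when any of the 4 libraries it compares was left out, with adjusted p from 0.0719 to 0.182 in limma. Slc39a2, an importer at low level, had the highest log2 differences of the other transporters, 0.44 (SE 0.23) with rivaroxaban and 0.60 (SE 0.23) with dabigatran, and did not pass (limma adjusted p = 0.360 and 0.246).

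**Figure D3:**
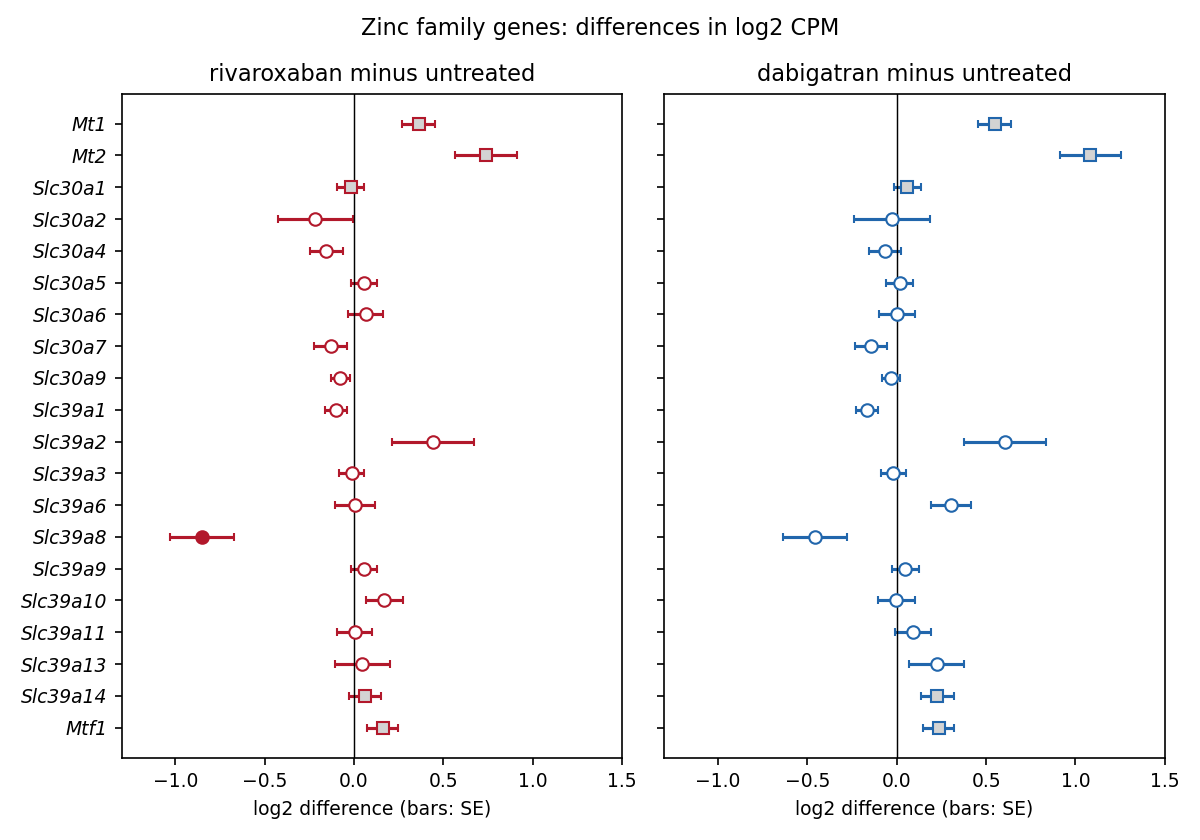
Log2 differences from untreated hearts (points, with SE bars) for the tested metallothioneins, zinc transporters and Mtf1, rivaroxaban left and dabigatran right; squares are the 5 chosen genes, drawn with no test, and among the circles filled ones passed an adjusted p of 0.05 over all genes. Mt1 and Mt2 lie to the right in both panels, Slc39a8 to the left, and most transporters near 0.

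Other genes that metals, hormones or cytokines act on were counted from lists. These were also drawn up with earlier results known. Of all tested genes, 2.46% were called with rivaroxaban and 1.88% with dabigatran. At these shares 0 calls are usual for lists this short, so a count of 0 says little about a pathway. Of 6 other tested genes reported as MTF1-dependent in mice (Slc39a10, Csrp1, Ndrg1, Selenow, Gclc and Pgf), 0 were called with either drug. Their median log2 differences were 0.07 for rivaroxaban and 0.02 for dabigatran. The list was not divided by the direction of the reported MTF1 effect, so its median does not measure MTF1 activity. That list does not hold Slc40a1, which stands in the iron and manganese list. Of 10 copper handling genes 0 were called, with medians of -0.10 and -0.06. Of 18 iron and manganese genes other than Slc39a14, Slc39a8 was called lower with rivaroxaban and Slc40a1 higher with dabigatran. Slc40a1 encodes ferroportin, the iron exporter, whose mouse gene is also known to respond to metals through MTF1. It had 4.68 and 5.22 log2 CPM with rivaroxaban, 5.14 and 5.27 with dabigatran and 4.61 and 4.51 in untreated hearts. Its difference was 0.64 (SE 0.14, limma adjusted p = 0.0444) with dabigatran, higher in 2 of 2 libraries, and 0.39 (SE 0.14, limma adjusted p = 0.181) with rivaroxaban. The dabigatran call was lost without any of its 4 libraries, with adjusted p from 0.114 to 0.159 in limma. Of 14 targets of the oxidative stress factor NRF2, 0 were called with either drug, with medians of -0.01 and 0.09.

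Glucocorticoid targets were the list with most calls, but like the others it was drawn up with earlier results known. The counts and p-values of these lists are therefore a description and not a test. Over all tested genes 1.47% were called higher with rivaroxaban and 1.38% with dabigatran. Of 13 tested glucocorticoid targets, 9 were called higher with rivaroxaban and 10 with dabigatran, with median log2 differences of 1.06 and 0.88. The counts were 5 with rivaroxaban without its replicate 15, 6 with dabigatran without its replicate 10, and 0 with each drug in a fit without the trend. The glucocorticoid-induced leucine zipper gene Tsc22d3 is an example, at log2 0.92 (SE 0.10, limma adjusted p = 0.00117) with rivaroxaban. Of 13 IL-6 and STAT3 targets, 2 were called higher and 1 lower with rivaroxaban, and 1 higher with dabigatran. Those for rivaroxaban were the transcription factor Cebpb (log2 1.07, SE 0.24, limma adjusted p = 0.0403), the oncostatin M receptor Osmr (log2 0.37, SE 0.08, limma adjusted p = 0.0473) and the iron-trapping protein Lcn2 (log2 -0.95, SE 0.19, limma adjusted p = 0.0281). With dabigatran it was Cebpd, a transcription factor (log2 0.88, SE 0.17, limma adjusted p = 0.0270). Cebpd also stands in the glucocorticoid list, so this call is already counted there. Leaving out any of the 4 libraries compared ended the Lcn2 and Osmr calls, with adjusted p up to 0.244 and 0.395 in limma. The Osmr call also ended with median centring. The Cebpb call ended without either rivaroxaban library or without untreated replicate 9, and the Cebpd call without dabigatran replicate 10. Between the drugs 0 genes of these lists were called. Whether these genes and the metallothioneins move from a shared cause was not tested.

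The chromosomal neighbours of the metallothionein genes were also measured. At the shares called over all tested genes, 2.46% for rivaroxaban and 1.88% for dabigatran, so few genes would usually hold no call. Within 500 kb of the Mt1 start, 12 other genes were tested, and 0 were called with either drug. Their log2 differences lay between -0.18 and 0.36 for rivaroxaban (median 0.03) and between -0.19 and 0.12 for dabigatran (median -0.01).

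**Figure D4:**
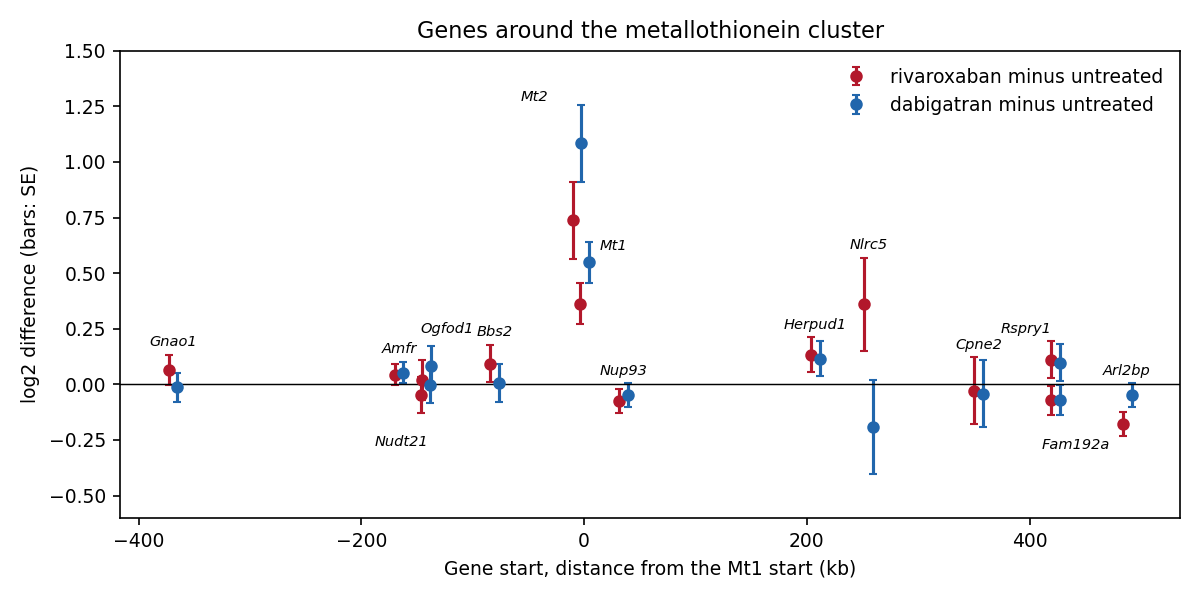
Log2 differences from untreated hearts (vertical, with SE bars) of tested genes within 500 kb of the Mt1 start, by the distance of their start in kb (horizontal); points of the drugs are drawn slightly apart. Mt1 and Mt2 lie above the 12 other genes for dabigatran, whose differences there lie between -0.19 and 0.12.

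By pattern over the 6 libraries, the genes nearest to Mt1 among 11318 were Ell2, Trim36, Rnf144b, Mcph1 and Tmem116. Likeness was the root mean square distance of mean-centred log2 CPM. It was 0.05 for Ell2, an RNA polymerase II elongation factor, against an amplitude of 0.25 for Mt1 itself. The nearest to Mt2 were Fosl2, Ppp1r10, Acer2, S1pr1 and Slc40a1. Their distances lay between 0.19 for Fosl2, an AP-1 transcription factor, and 0.21 for Slc40a1, against an amplitude of 0.50 for Mt2. On this measure, which keeps the size of change, Mt1 ranked 36 among the genes nearest to Mt2, and Mt2 ranked 5841 among those nearest to Mt1. The distance between them, 0.27, was larger than the amplitude of Mt1.

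Markers were set beside these values. Over all tested genes limma called 0.986% lower and 1.47% higher with rivaroxaban, and 0.501% lower and 1.38% higher with dabigatran. Cardiomyocyte markers summed to between 66551 and 68085 CPM with rivaroxaban, 69156 and 69358 with dabigatran and 70543 and 71088 in untreated hearts, and 0 of 5 were called. Mesothelial markers, from the cell layer over the heart, summed to between 39.3 and 45.6 CPM with rivaroxaban, 47.8 and 52.5 with dabigatran and 68.8 and 73.2 in untreated hearts. Of 6, 4 were called lower and 1 higher with rivaroxaban, and 2 lower and 1 higher with dabigatran. In bulk tissue fewer cells of a type and less RNA per cell cannot be told apart, and the part of these markers in the metallothionein values was not tested. 1 of 6 endothelial and 1 of 6 smooth muscle and pericyte markers were called lower with rivaroxaban. Slc4a1, the 1 red cell marker analysed here, had 1.81 and 1.23 CPM with rivaroxaban, 2.54 and 1.70 with dabigatran, and 0.81 and 0.22 in untreated hearts, and was called higher with dabigatran. The neutrophil markers Cxcr2 and Retnlg, and the adipocyte markers Adipoq and Plin1, were under 0.5 CPM in every library. From the same lists, the neutrophil marker Csf3r had 1.71 to 2.25 CPM with rivaroxaban, 1.64 to 2.34 with dabigatran and 1.54 to 1.92 in untreated hearts. Fabp4, which adipocytes share with endothelium, had 535 to 540 CPM with rivaroxaban, 549 to 576 with dabigatran and 491 to 568 in untreated hearts. Cidea had 25.7 to 26.8 CPM with rivaroxaban, 29.8 to 31.7 with dabigatran and 28.2 to 31.2 in untreated hearts. The hepatocyte markers Ttr and Ahsg come from an organ rich in metallothionein. Together they summed to between 2.72 and 3.83 CPM with rivaroxaban, 2.45 and 3.06 with dabigatran and 1.70 and 1.79 in untreated hearts. Most of each sum was Ahsg, at 2.36 and 3.63 CPM with rivaroxaban, 2.58 and 2.22 with dabigatran and 1.58 and 1.48 in untreated hearts. Ttr was under 0.5 CPM in every library. The 1 hepatocyte marker tested was not called with either drug. The part of the red cell and hepatocyte markers in the metallothionein values was not tested either.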

How the data were processed

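Poly-A RNA of 6 mouse heart samples was sequenced as directional libraries, per the labels' protocols. The deposited table holds log2 CPM per gene that the authors scaled by TMM, per the file headers. Tools named in the submitters' processing notes were STAR and edgeR, after bcl2fastq, Trim Galore and FastQC, with the build mm10. Their versions, the counter and the annotation were not given in the sources used here. The authors' added floor, 0.0609 CPM, draws low values together, so their fold changes are understated. After its removal, values of up to 200 reads were whole reads within 0.02. Larger values, those of Mt1 and Mt2 among them, were rounded to whole reads without that check. These reads gave depths and the Mt2 share, and 0 columns were left out.

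limma 3.58.1 in R 4.3.3 fitted 3 group means to all 6 libraries (eBayes with trend, residual df 3, prior df 7.75) over 12981 genes whose log2 CPM averaged 0 or more. Tests were two-sided, Benjamini-Hochberg adjusted over all of them, threshold 0.05. The fitting code was run on simulated counts with known changes and the same spread for every gene. That run checks the code and not how the test behaves on these data. The 5 genes and all lists were chosen with earlier results of these data known. Genes picked for naming were the 5, and the 5 genes nearest in pattern to Mt1 and to Mt2. From the lists they were members that passed (up to 4 a comparison by p, otherwise the 2 smallest p). Only some of these list genes are named here, with Tsc22d3 as the example of the glucocorticoid targets. Genes of which only levels or roles are given, and Slc39a2, were chosen after values were seen. Coordinates are GENCODE M21. Promoters are RefSeq, with an entry for 4 of the 5 genes and none for Slc39a14. Protein sequences were not analysed here. Alternatives were filter, pseudocount, trend, samples in the fit, centring, and each library left out.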

Additional observations from a re-analysis of the deposited data

Results flagged for a closer look

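For 3 zinc genes below the expression filter, every rivaroxaban library lay below the untreated mean and every dabigatran library above it. Mt3 had 29 and 22 reads with rivaroxaban, 29 and 46 with dabigatran, and 25 and 30 in untreated hearts. Rivaroxaban minus dabigatran was -0.43 on the log2 scale. For Slc39a7, which encodes the ZIP7 zinc channel of the endoplasmic reticulum, this value was -0.50, with 24 and 19 reads with rivaroxaban, 27 and 39 with dabigatran and 21 and 25 in untreated hearts. For Slc39a12 it was -0.39, with 12 and 10 reads with rivaroxaban, 13 and 19 with dabigatran and 14 and 9 in untreated hearts. For Slc39a12 the untreated libraries, at -0.86 and -1.56 log2 CPM, lay on either side of all 4 treated ones. The differences were not tested, and counts this low leave wide counting error.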

How the results depend on the processing

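The counts of genes past the threshold were 319 for rivaroxaban and 244 for dabigatran against untreated, and 10 between the drugs. Without the mean-variance trend they were 0, 0 and 0 in limma, with 1938, 1728 and 984 genes at an unadjusted p under 0.05. With only the 2 groups compared, the count between the drugs was 6. Centring on cardiomyocyte markers gave 640 for rivaroxaban, of which 86.7% were higher against 59.9% in the deposited scaling. Leaving out 1 library gave 61 to 410 genes for rivaroxaban, 73 to 270 for dabigatran and 0 to 20 between the drugs; it leaves fewer samples, and a lone library is assumed to vary like the other groups. The cause of the other changes was not tested.

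The log2 differences of Mt1, Mt2, Mtf1 and Slc39a14 from untreated kept their sign in all 14 alternatives, from 0.40 to 1.08 for Mt2 with rivaroxaban and 0.96 to 1.21 with dabigatran. The sign turned for Slc30a1 with rivaroxaban, to 0.071 with cardiomyocyte centring, and it lay between -0.064 and 0.031 with 1 library left out, above 0 without rivaroxaban replicate 15 or untreated replicate 8 (0.0067). It turned for Mtf1 between the drugs, which lay between -0.15 and 0.0018 with 1 library left out, above 0 without dabigatran replicate 10. The calls of Slc39a8 and Slc40a1 each held in 9 of 14 alternatives, which were added for them after seeing the data, and were lost without the trend and whenever a library of their own comparison was left out. The calls of Tsc22d3 with rivaroxaban, Cebpd, Cebpb, Lcn2 and Osmr held in 13, 12, 10, 9 and 8 of these. No paired analysis was possible because the groups share no replicate numbers.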
